A study of Homo sapiens with 2 samples.

Results

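MYC and 6 genes of its dimerisation network (MYCL, MAX, MXI1, MXD1, MNT and MLX) were examined for IGF2BP3 binding in OE-19 cells. The genes were chosen by name. A peak was counted for a gene when it overlapped the annotated span of that gene by at least 1 bp on hg38. Replicate 1 held 12 such peaks among 21142, and replicate 2 held 17 among 20799. OE-19 is an established cell line derived from an esophagogastric junction adenocarcinoma, and the labels name no treatment. IGF2BP3 binding was mapped by LACE-seq, in which RNA is crosslinked to protein by UV light (264 nm, 400 mJ per the labels), immunoprecipitated with an IGF2BP3 antibody, fragmented and copied into cDNA whose ends are amplified linearly. The data are 2 replicates of this single group, for which the labels do not say whether the cultures were separate, and no input, IgG or IGF2BP3-depleted library was analysed here.

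MYC is a basic helix-loop-helix leucine zipper transcription factor that binds E-box DNA as a dimer with MAX and activates growth genes. MXD1, MXI1 and MNT compete for MAX and recruit SIN3 corepressors, so their dimers act against those of MYC. MLX heads a parallel arm that pairs with MNT, MXD1 and the glucose-sensing factors MLXIP and MLXIPL, and MYCL is a MYC paralog found in a narrower set of tissues. MYC mRNA is short-lived. The end of its coding region holds a stability element, the coding region determinant, which the IGF2BP family member IGF2BP1 is known to shield from cleavage. The question here was where IGF2BP3 peaks lie on these mRNAs and whether both replicates place them there.

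GGAC is the core of the m6A motif, and the study describes IGF2BP3 as a reader of m6A. The stretches that follow show, for each peak of MAX and MNT that overlapped between the replicates, the GGAC nearest to the middle between the summits, in capitals within 30 bases of the transcribed strand. They are read from hg38 and both genes are on the minus strand.
MAX 5′ UTR, chr14:65102417-65102446: gtgtgtgtgggggGGACtcggcttgttgtt
MAX last coding stretch, chr14:65076529-65076558: tcgatgggggctcGGACtccagctcggagt
MNT 5′ UTR, chr17:2401014-2401043: tttcttgtcggcgGGACtcccgggggccgc
MNT exon 2, chr17:2395130-2395159: ggttggcgcccccGGACtcagcattaagga
MNT last exon, coding, chr17:2387599-2387628: aggatatggaggaGGACcgggcgggcctgg
MNT start of the 3′ UTR, chr17:2386884-2386913: caagctggcttgaGGACgaggccactcaga
MNT distal 3′ UTR, chr17:2384676-2384705: cagagtgctgtcgGGACcacatctgtcctc
The GGAC lay 31 bases from both summits in the MNT 5′ UTR, and 30 bases from the summit of replicate 1 and 116 from that of replicate 2 in the MAX coding stretch. In the other stretches it was 45 to 441 bases away. Each stretch was picked for holding GGAC, and the shared intervals held 1 to 7 of them over 311 to 997 bp. A match of these letters is a description of the sequence and not a mapped m6A site.

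IGF2BP3 peaks were present in both replicates in 5 of the 7 genes (MYC, MAX, MNT, MXD1 and MXI1), in replicate 2 only in MLX, and in neither replicate in MYCL. Of all 20033 annotated protein-coding genes, 41% had a peak in replicate 1, 42.2% in replicate 2, 48.5% in either and 34.7% in both. The peaks overlapped between the replicates in 3 genes, MYC, MAX and MNT, against 30.5% of all protein-coding genes. Among genes with a peak in both replicates 88% had overlapping ones, whereas the peaks of MXD1 and MXI1 lay at different places in each replicate. Counted by peak, 9 of 12 in replicate 1 and 10 of 17 in replicate 2 overlapped the other list, against 60.1% and 61.2% of all peaks. MYC had 3 peaks of replicate 1 that overlapped replicate 2 and MNT had 4. At least 3 such peaks were found in 7.81% of protein-coding genes and at least 4 in 4.21%. A peak list holds no RNA level, so more RNA and more binding per RNA cannot be told apart.

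The libraries were similar in depth where it could be read. The median number of reads piled up at a summit was 22 in both replicates, and the median fold enrichment was 6.89 and 7.13. Fold enrichment is the ratio of the summit to its local background, with 1 read added to each. The added read lowers the ratio most where reads are few. The libraries differed at mRNA 5′ ends. A peak covered the first base of 8.12% of all MANE Select transcripts in replicate 1 and of 17.2% in replicate 2. All 29 member summits lay in 31-mers that occur once in the genome. The epithelial markers KRT8, KRT18, KRT19, EPCAM and CDH1 and the gene ERBB2, which is amplified in OE-19, all had overlapping peaks (6 of 6). Of 6 markers of other cell types, 0 had peaks in both replicates, although PTPRC had 1 peak in replicate 1 and COL1A1 had 1 in replicate 2.

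MYC (ENSG00000136997.22, chromosome 8, 127735434 to 127742951, plus strand) had 3 peaks in each replicate, 1 on each of the 3 exons of its MANE Select mRNA. This mRNA is 3721 nt long, with a 5′ UTR of 363 nt, a coding region of 1365 nt including the stop codon and a 3′ UTR of 1993 nt. The peaks covered 85.5% of the coding region in replicate 1 and 76.9% in replicate 2 (81.2% ± 6.06, SD, n = 2). They covered 66.4% and 52.3% of the 5′ UTR, and 0 nt of the 3′ UTR in either replicate. Positions under peaks of both replicates made up 31.7% of the mRNA.

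**Figure D1:**
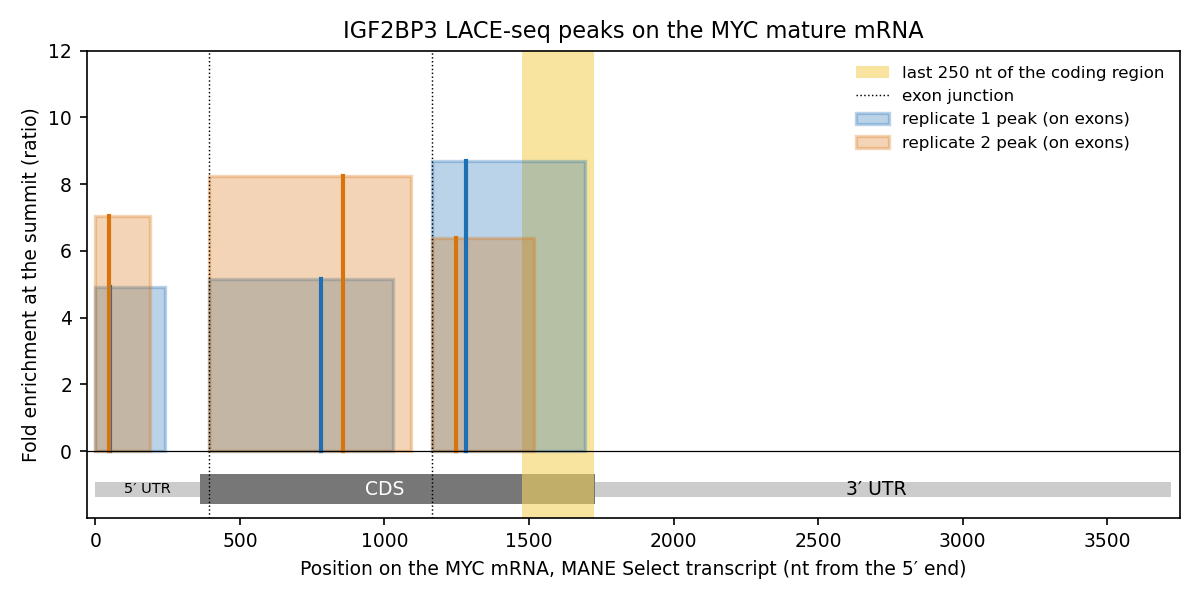
Peaks of both replicates on the MYC mature mRNA. The x axis gives the position on the MANE Select transcript in nt, the height of each box is the fold enrichment at the summit (a ratio), thick vertical lines are summits and only the exonic part of each peak is drawn. The 3 peaks of each replicate sit on the 3 exons and stop before the 3′ UTR, and the exon 3 peak is the highest of replicate 1 while the exon 2 peak is the highest of replicate 2.

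The exon 1 peak spanned 127736174 to 127736471 in replicate 1 and 127736023 to 127736420 in replicate 2. It covered the first base of the mRNA in both and reached nucleotide 241 and nucleotide 190. It also ran upstream of that base, by 57 bp in replicate 1 and 208 bp in replicate 2. Its summits were 1 bp apart, at nucleotides 49 and 48. The fold enrichment was 4.90 with 44 reads at the summit in replicate 1, and 7.04 with 63 reads in replicate 2 (5.97 ± 1.51, SD, n = 2). The summit lies in the 5′ UTR of the MANE Select mRNA and in coding sequence of other MYC transcripts.

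The exon 2 peak spanned 127738226 to 127738884 in replicate 1 and 127738207 to 127738946 in replicate 2. On the mRNA it ran from the first base of exon 2, nucleotide 394, to nucleotides 1030 and 1092. It included the first in-frame AUG at nucleotide 409, the start of the common MYC protein, which lies 15 codons after the upstream non-AUG start that the annotation uses. The fold enrichment was 5.16 with 48 reads in replicate 1 and 8.26 with 74 reads in replicate 2 (6.71 ± 2.19, SD, n = 2). An exon of the lncRNA gene CASC11, which is transcribed in the other direction, lies under this peak. The peaks are unstranded, so the 2 genes cannot be told apart here.

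The exon 3 peak spanned 127740285 to 127740925 in replicate 1 and 127740273 to 127740746 in replicate 2. Its fold enrichment was 8.69 with 81 reads at the summit in replicate 1 and 6.38 with 57 reads in replicate 2 (7.54 ± 1.63, SD, n = 2). Within its list this peak stood at percentile 76.3 of fold enrichment in replicate 1 and 34.9 in replicate 2, and at percentiles 96.7 and 83.7 of the −log10 q-value. By fold enrichment and by reads, exon 3 was the highest of the 3 MYC peaks in replicate 1 and the lowest in replicate 2. Exon 3 had the most reads in replicate 1 (81, exact Poisson 95% interval 64.3 to 101) and its interval did not reach that of exon 2 (48, 35.4 to 63.6). In replicate 2 the intervals of exon 2 (74, 58.1 to 92.9) and exon 3 (57, 43.2 to 73.9) overlapped. That of exon 1 (63, 48.4 to 80.6) overlapped both, so the order in replicate 2 is not resolved. These intervals cover counting error only. The median absolute log2 difference over all 13071 overlapping pairs was 0.27, and those of MYC were 0.52 at exon 1, 0.68 at exon 2 and 0.44 at exon 3.

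At the end of the MYC coding region, the last 250 nt before the stop codon (nucleotides 1476 to 1725) were taken as the stretch that carries the stability element. The exon 3 peak covered 220 of these nucleotides in replicate 1 (88.0%) and 41 in replicate 2 (16.4%), a mean of 52.2% ± 50.6 (SD, n = 2). It ended 30 nt before the stop codon in replicate 1 and 209 nt before it in replicate 2. The summits lay upstream of the stretch in both replicates, at positions -443 and -480 from the first base of the stop codon. The stretch holds 1 GGAC, at nucleotide 1659, under the peak of replicate 1 and not of replicate 2. Of the 6 GGAC in the MYC coding region, 5 lay under peaks of both replicates, which covered 72.4% of that region. The 3 in the 5′ UTR lay outside the peaks, and the 6 in the 3′ UTR could not be covered because no peak reached it.

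The place of a peak edge bears on this value. The exon 3 peak also covered 111 nt of the preceding intron in replicate 1 and 123 nt in replicate 2, and no MYC peak ran past the end of an exon. When every peak was moved towards the 3′ end by 146 nt (replicate 1) or 147 nt (replicate 2), the distance between the start and the centre of the narrowest peak called in that replicate, the covered share of the last 250 nt became 100% and 75.2%. The moved peak of replicate 1 then covered the stop codon and 113 nt of the 3′ UTR, and that of replicate 2 ended before the stop codon. The moved summits still lay upstream of the last 250 nt, at positions -297 and -333. This move was chosen after the data had been seen.

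**Figure D2:**
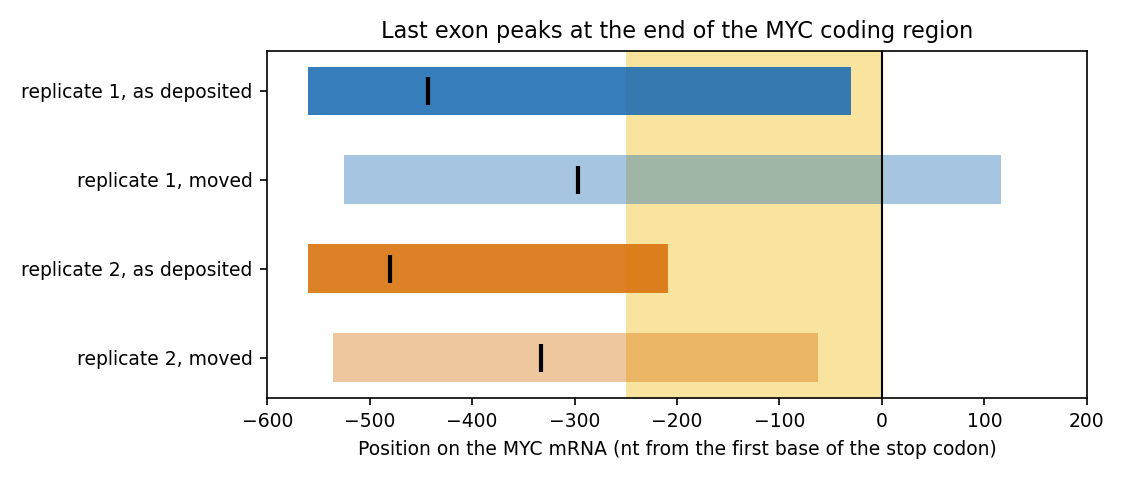
Exon 3 peaks of MYC near the stop codon, as deposited and moved downstream. The x axis is the position on the mRNA in nt from the first base of the stop codon, bars are the exonic part of the peak, black ticks are summits and the shaded area is the last 250 nt of the coding region. As deposited the peak covers 88.0% of that area in replicate 1 and 16.4% in replicate 2, and moved it covers 100% and 75.2%.

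MAX (ENSG00000125952.21, chromosome 14, 65006174 to 65102695, minus strand), the common dimer partner of MYC, MYCL, MXD1, MXI1 and MNT, had 3 peaks in each replicate, of which 2 overlapped. The first lay at the 5′ end, with bounds of 65102307 and 65102740 in replicate 1 and of 65102346 and 65102690 in replicate 2. Its fold enrichments were 11.5 and 11.1 (11.3 ± 0.268, SD, n = 2), at percentiles 92.2 and 88.0 of the lists, on 21 and 19 reads at the summit. Fold enrichment thus differed by a factor of 1.03 between the replicates. It covered 178 and 172 of the 178 nt of the MAX 5′ UTR. A further 223 of its 434 bp in replicate 1 and 173 of its 345 bp in replicate 2 lay upstream of the MANE Select mRNA. The summit of replicate 1 lay in that upstream part, in the 5′ UTR of other MAX transcripts.

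The second shared MAX peak lay on the last exon, with bounds of 65075864 and 65076862 in replicate 1 and of 65075866 and 65076878 in replicate 2. It covered the last 188 coding nt, the stop codon and 612 or 610 nt of the 3′ UTR. The fold enrichment was 8.58 on 38 reads and 6.85 on 26 reads (7.72 ± 1.22, SD, n = 2). MAX differed from MYC here, since the peak on its last exon ran through the stop codon in both replicates. Of the 11 GGAC on the MAX mRNA, 7 lay under peaks of both replicates, 1 in the 5′ UTR, 1 in the coding region and 5 in the 3′ UTR. Those peaks together covered 48.3% of the mRNA in both replicates. The other MAX peaks were seen in 1 replicate each. Replicate 1 had a peak of 9 reads over the edge of exon 3 (fold enrichment 6.95), where an exon of the lncRNA gene ENSG00000259118 lies on the opposite strand. The summit of that peak lay in the intron before exon 3 of MAX, and 54 of its 293 bp lay in the exon. Replicate 2 had one of 17 reads (fold enrichment 9.0) in a 3′ UTR that only other MAX transcripts use, where exons of FNTB and of the read-through gene CHURC1-FNTB lie on the opposite strand.

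**Figure D3:**
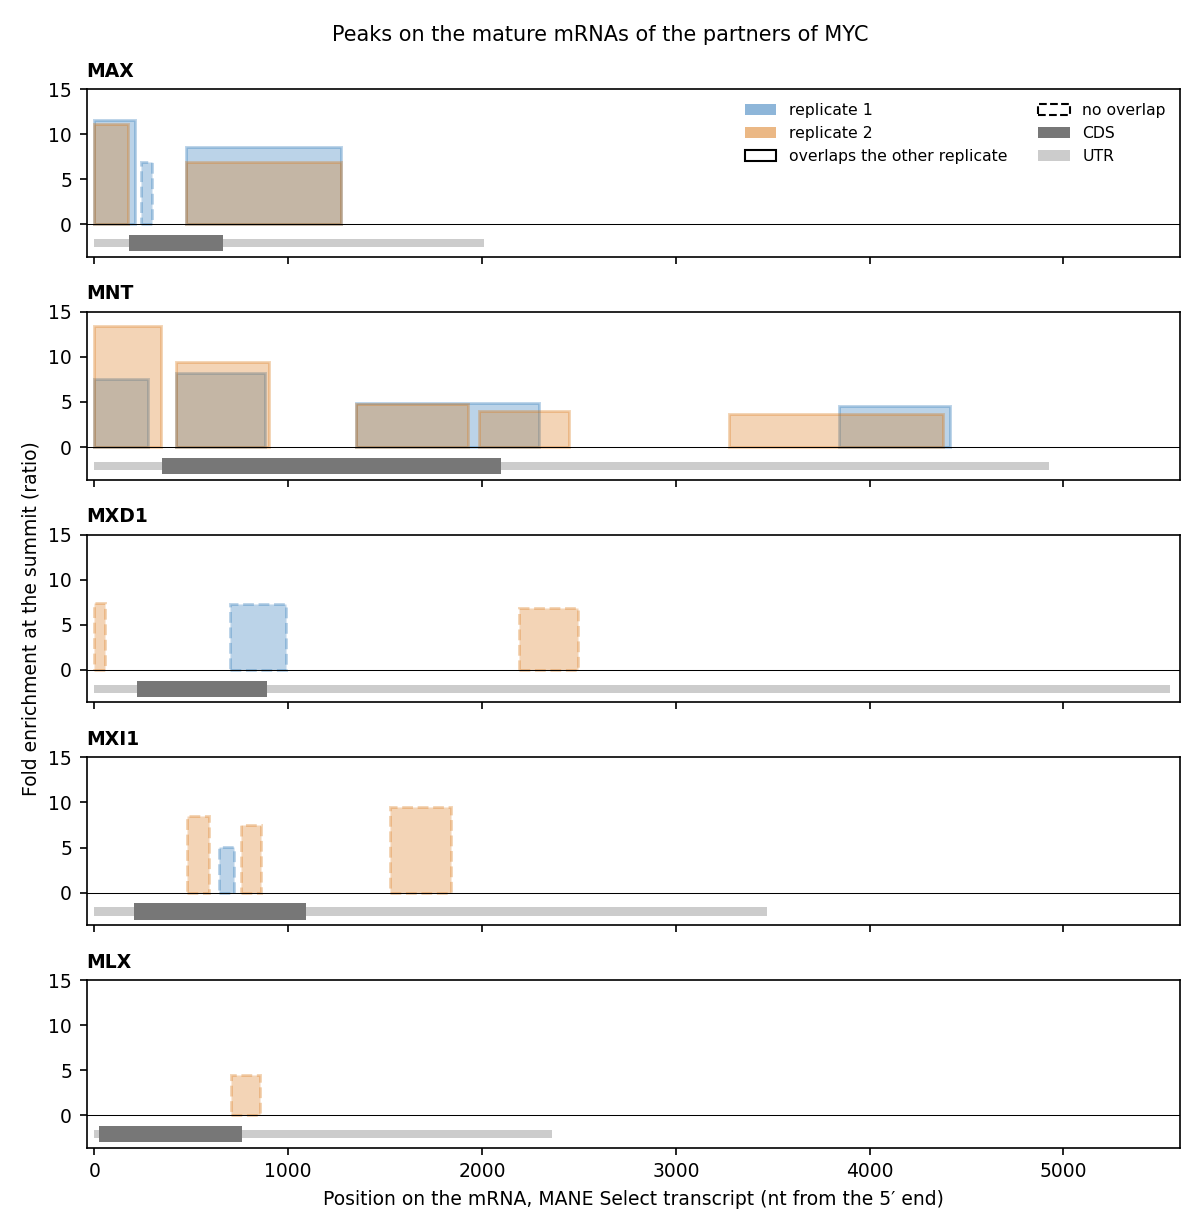
Peaks on the mature mRNAs of MAX, MNT, MXD1, MXI1 and MLX. The x axis is the position on the MANE Select transcript in nt and the height of a box is the fold enrichment at the summit (a ratio). Boxes with solid edges overlap a peak of the other replicate and dashed boxes do not, so MAX and MNT carry shared boxes and MXD1, MXI1 and MLX carry none. The MAX peak that touches no exon of this transcript is not drawn.

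Among the repressors, MNT (ENSG00000070444.15, chromosome 17, 2384073 to 2401104, minus strand) had the most peaks of the 7 genes, 4 in replicate 1 and 5 in replicate 2, and each of them overlapped the other replicate. They covered 45.8% and 60.4% of its mRNA (53.1% ± 10.3, SD, n = 2), from the first base to the distal 3′ UTR. The 5′ UTR peak lay at 2400782 to 2401255 (replicate 1) and 2400717 to 2401148 (replicate 2), and both summits were at 2400997. Its fold enrichment was 7.53 on 20 reads and 13.4 on 38 reads (10.5 ± 4.15, SD, n = 2), a log2 difference of 0.83 that exceeded those of 94.5% of all overlapping pairs, although the summits coincided to the base. The exon 2 peak had fold enrichments of 8.22 and 9.46 (8.84 ± 0.878, SD, n = 2) on 39 and 46 reads.

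The last exon of MNT held the remaining peaks. Replicate 1 had a single peak of 1025 bp from 2386702 to 2387726, which ran from the last coding stretch through the stop codon into the 3′ UTR (fold enrichment 4.85, 64 reads). In replicate 2 this stretch was split between a coding peak (4.83, 81 reads) and a second one over the stop codon (4.03, 67 reads). A distal 3′ UTR peak had 4.52 on 60 reads in replicate 1 and 3.67 on 63 reads in replicate 2. The distal peak of both replicates and the stop codon peak of replicate 2 touch an exon of a lncRNA gene on the opposite strand, ENSG00000262456. These last-exon peaks had more reads than the 5′ UTR peak of MNT in the same replicate but a lower fold enrichment, at percentiles 3.08 to 14.0 of the lists.

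MXD1 (ENSG00000059728.11, chromosome 2, 69897688 to 69942945) had 1 peak in replicate 1, over its stop codon from 69937879 to 69938383, with a fold enrichment of 7.27 on 28 reads. Replicate 2 had 2 other peaks, at the 5′ end (7.39, 9 reads) and in the 3′ UTR from 69939590 to 69939893 (6.84, 31 reads). The nearest peaks of the replicates were 1206 bp apart. MXI1 (ENSG00000119950.21, chromosome 10, 110207605 to 110287365) had 1 peak of 6 reads in replicate 1 over the edge of exon 4 (fold enrichment 5.07). The summit of this peak lay in the intron before exon 4, and 81 of its 293 bp lay in the exon. Replicate 2 had 3 MXI1 peaks, of 12, 10 and 15 reads, with fold enrichments of 8.50, 7.48 and 9.55. They lay over the edge of exon 2, over the edge of exon 5 and in the 3′ UTR. The summit of the exon 2 peak lay in the intron before that exon on the MANE Select transcript, and in the 5′ UTR of other transcripts. The closest pair was separated by 462 bp. No MXD1 or MXI1 site was therefore called in both replicates.

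MLX (ENSG00000108788.12, chromosome 17, 42567072 to 42573239) had 1 peak, in replicate 2, from 42571399 to 42571699 over its stop codon. It had 19 reads at the summit and a fold enrichment of 4.45, at percentile 8.07 of the list. Replicate 1 had no MLX peak, and its nearest one lay 4.17 kb away in the neighbouring gene COASY. MYCL (ENSG00000116990.12, chromosome 1, 39895428 to 39902256) had none in either list, and the nearest peaks were 62.7 and 52.7 kb away, in MFSD2A. A gene without a called peak may still be bound below the calling threshold.

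**Figure D4:**
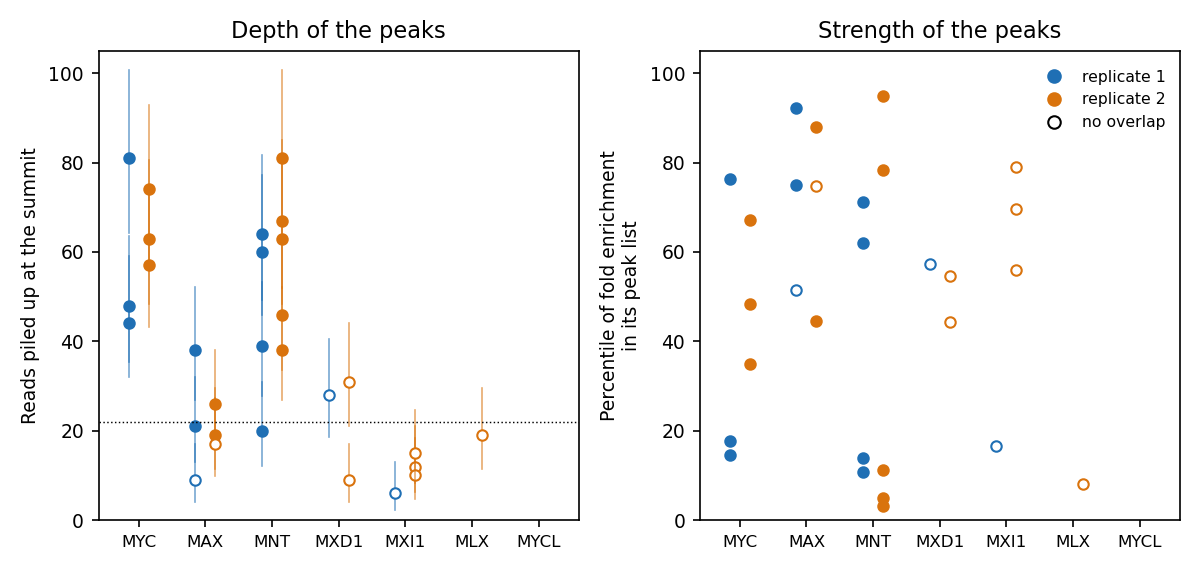
Depth and strength of the 29 peaks by gene. The left panel gives the reads piled up at each summit with exact Poisson 95% intervals and a dotted line at the list median of 22, and the right panel gives the percentile of fold enrichment within the list of that replicate. Filled points overlap a peak of the other replicate, and they range from 19 to 81 reads, while open points do not and range from 6 to 31 reads. MYCL has no point because it had no peak.

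Whether a site recurred went together with its depth. The 19 peaks that overlapped the other replicate had 19 to 81 reads at the summit (median 48) and the 10 that did not had 6 to 31 (median 13.5). By fold enrichment the ranges were 3.67 to 13.4 and 4.45 to 9.55 and overlapped widely. Fold enrichment is itself lowered at few reads by the added read, so this comparison is not free of depth. Of the 19 recurring peaks 18 had at least 20 reads, and of the other 10 peaks 8 had fewer. Over all peaks, the share that overlapped the other list was 43.6% and 46.1% below 20 reads and 72.1% and 73% from 20 reads on. The limit of 20 reads was set after the values were seen. A recurring site is counted here in both replicates, and any other site in 1 only. MYC gave 6 of the 19 recurring peaks and MNT gave 9, so depth and gene cannot be told apart in these counts.

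The edges of the peaks were set against the exons. Of the 29 peaks, 16 ran across the start of an internal or last exon into the intron before it, by 22 to 248 nt, and 0 ran across the end of an exon into the following intron. Over all peaks on MANE Select exons, 60.9% and 56.8% crossed an exon start and 8.71% and 10.2% an exon end, so the 16 of 29 lies near the share over all peaks. Peaks covered the first base of the mRNA in 3 genes in replicate 1 and 4 in replicate 2, with MYC, MAX and MNT in both. Of all 19061 MANE Select transcripts, 8.12%, 17.2% and 6.78% had this base covered in replicate 1, in replicate 2 and in both. The member peaks over this base also ran 57 to 261 bp upstream of it. The annotated start codon was covered in replicate 1 of MAX and in no other case (9.08%, 14% and 6.68% of all transcripts). For MYC this is the upstream non-AUG start, and the AUG at nucleotide 409 was covered in both replicates. The stop codon was covered in 3 genes in each replicate, with MAX and MNT in both (14.1%, 12.8% and 9.11% of all transcripts). With the peaks moved as above, the first base was covered in both replicates in MAX only, as was the stop codon, while the annotated start codon was covered in both in MAX and MNT. The MYC AUG at nucleotide 409 was then under no peak in either replicate. Which of these landmarks lie under peaks thus changed with the move. Where the binding site lies within a peak was not measured.

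Within 50 bases on each side of a summit, GGAC was found in 5 of 12 windows in replicate 1 and 6 of 17 in replicate 2. It was found in 28.8% and 31.9% of the windows around all summits that lie in a single protein-coding gene, read on the gene strand. That rule would leave out 1 of the 6 windows of replicate 2, the MAX peak over FNTB, so the counts and the shares are not taken in quite the same way. TGGAC is the DNA spelling of UGGAC, which contains GGAC. The paper reports UGGAC as the preferred sequence of IGF2BP3 targets, those from LACE-seq included. TGGAC was found in 1 window of each replicate, against 9.95% and 10.2%. It also lay outside the windows within other member peaks, for which no share over all peaks was taken. ACACA, a short CA-rich sequence of the kind that IGF2BP proteins are known to prefer, was found in 2 windows of replicate 1 and 1 of replicate 2, against 10.8% and 8.59%. With this few windows the shares are descriptions.

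The surrounding genes of the MYC pathway were described from 5 lists of 61 genes in all. Overlapping peaks were found in 38 of them (62.3%, against 30.5% of all protein-coding genes), and 9 had no peak in either replicate. Longer genes offer more room for peaks, and the RNA levels of these genes were not analysed here, so the lists were not compared further. The other network genes had overlapping peaks in 4 of 6 (MXD4, MGA, MLXIP and MLXIPL). MLXIPL had fold enrichments of 10.9 and 14.6 at its strongest pair, MLXIP 11.4 and 11.0, and MGA, a MAX partner that represses germline genes, 8.17 and 7.19. MYCN, the neural MYC paralog, had no peak.

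Chromatin cofactors of MYC and of its repressors had overlapping peaks in 11 of 17 genes. Leading were the corepressor NCOR1 (12.8 and 13.4), the histone deacetylase HDAC2 (12.1 and 15.9) and SIN3A, the scaffold that MXD proteins recruit (14.8 and 12.5). Of the genes that control turnover of the MYC protein, 6 of 9 had overlapping peaks, led by the kinase GSK3B (15.9 and 16.2), the kinase AURKA (9.46 and 11.2) and FBXW7, the ubiquitin ligase subunit that recognises MYC (9.96 and 10.0). Proteins that bind MYC mRNA had them in 8 of 11 genes, with SYNCRIP (12.2 and 14.6) and HNRNPU (10.1 in both), which join IGF2BP1 on the coding region determinant, and HNRNPD (11.1 and 12.4), which binds AU-rich elements. YBX1 and DHX9, the other known partners in that complex, had 1 peak in each replicate without overlap, with fold enrichments of 8.66 and 6.65 for YBX1 and of 8.07 and 8.16 for DHX9. These last 2 genes were named after their values were seen. IGF2BP3 mRNA itself had 3 peaks in each replicate, whereas IGF2BP1 had none. Of 18 known MYC target genes 9 had overlapping peaks, led by RCC1 (14.4 and 13.1), the glycolytic enzyme LDHA (15.1 and 13.1) and the transferrin receptor TFRC (9.71 and 11.5).

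**Figure D5:**
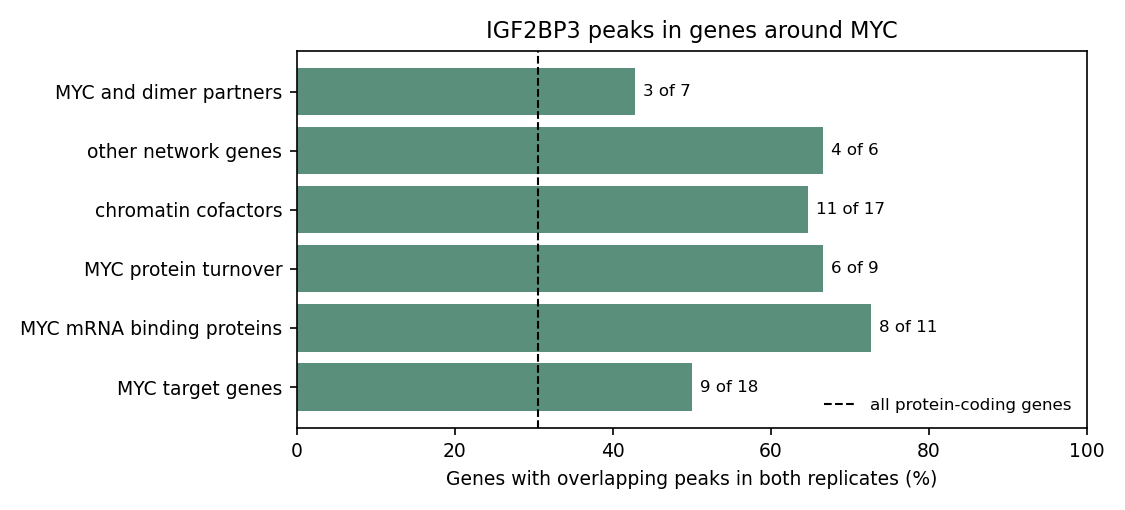
Share of genes with overlapping peaks in MYC and its dimer partners and in 5 lists of the MYC pathway. Bars give the percent of genes of each list, with the counts beside them, and the dashed line marks the 30.5% of all protein-coding genes. The 7 genes of the dimer network had 3 with overlapping peaks, and the lists ranged from 9 of 18 to 8 of 11.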

How the data were processed

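The authors crosslinked OE-19 cells, immunoprecipitated IGF2BP3 and called peaks on hg38 separately in each of 2 replicates. The methods name Bowtie, with pre-rRNA reads removed, and Piranha. The submitters' processing notes name fastp, HISAT2 and MACS2, and the deposited files have the MACS2 layout, so the aligner and the caller remain uncertain. Each deposited line gives the start, end and summit of a peak, the fold enrichment as a ratio, and the p-value and q-value on the −log10 scale (the lowest −log10 q was 2.18 and 2.15). The deposited score column repeats the q-value and was not used. No peak has a strand.

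Total read numbers are unknown. The pileup at each summit was recovered from the deposited fold and p-value under a Poisson model for 21142 and 20799 peaks, which is every peak, with exact Poisson 95% intervals for counting error. Peaks were placed on GENCODE 44 genes and on the MANE Select mRNA with Python 3.11.15, numpy 2.4.6, pandas 2.3.3 and scipy 1.17.1. Overlap was counted from 1 shared bp, coordinates are 1-based, and classes at the summit were taken over all transcripts in the order CDS, 3′ UTR, 5′ UTR, non-coding exon and intron. Motif windows had 101 nt. The recovery of pileups and the overlap search were tested on simulated data.

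The members and the lists were chosen with earlier results of these data known, and with 1 group of 2 replicates no test was made, so values are given with the SD of the replicates and beside all protein-coding genes. All 7 members were named, and of each list the 3 genes with the highest fold enrichment percentile in the weaker replicate of their best overlapping pair. Alternatives changed the overlap rule, the q-value threshold, the assignment to genes, the transcripts, the position within a peak, the length of the MYC stretch and the replicates used.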

Additional observations from a re-analysis of the deposited data

How the results depend on the processing

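Of 71 alternative values for 8 results under 16 settings, 64 moved by less than 1 SD, or for counts by at most 1.5 times, and 7 moved further. Several settings could not change a result, such as the q-value thresholds for the exon 3 fold enrichment. The SD at the end of the MYC coding region was 50.6, so 41.7% and 87.6% count there as not moved. The count of summits in CDS moved further only when a replicate, and so its peaks, was left out. Leaving out a replicate cannot move a mean of 2 by as much as 1 SD, so the end of the MYC coding region (16.4% to 88.0%) and the exon 3 fold enrichment (6.38 to 8.69) are not shown to be stable by this count. The number of MYC peaks with an overlap fell from 6 to 4 when summits had to lie within 50 bp or when peaks on an exon of another gene were left out. The number of genes with overlapping peaks stayed at 3 under every overlap, threshold and assignment setting. The share of the MYC mRNA under peaks of both replicates was 31.7%, and became 14.5% under these same settings, since either drops the exon 2 peak. It became 20.6% over the exons of all MYC transcripts and 36.5% with peaks moved downstream, and was 33.3% to 37.8% with a single replicate. Summits in CDS numbered 14 of 29 in all, with 7 of 12 in replicate 1 alone and 7 of 17 in replicate 2 alone. With both replicates kept, the count was 12 on the MANE Select transcripts only and 12 by the midpoint of the peak. It was 10 by the class with the most bases and 15 with moved peaks. The share over all peaks is not given here, so these counts are descriptions. At a −log10 q of at least 5, 4 genes had a peak in both replicates in place of 5, because the MXI1 peak of replicate 1 was lost. The covered share at the end of the MYC coding region was 41.7% for the last 180 nt, 60.2% for the last 300 nt and 87.6% with moved peaks, against 52.2%. For the last 180 nt no mean fold enrichment could be given, since the peak of replicate 2 does not reach that far. The sites of MXI1 and of the 5′ end of MXD1 rest on 6 to 15 reads. Whether depth kept them from recurring was not tested, and the MXD1 peaks of 28 and 31 reads did not recur either. No paired analysis was possible because the data hold a single group.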
